A study of Homo sapiens with 20 samples.

Results

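Baits with 20 or more local contacts were examined in a Poised Enhancer Capture Hi-C data set from human pluripotent cells and their derivatives. A bait is a captured restriction fragment, and a local contact is a listed pair of a bait and another fragment, the other end, on the same chromosome. The baits were selected on the number of such pairs listed per bait over the whole deposited matrix, and baits on chromosome 16 between 34 and 47 Mb or on chromosome 1 in the interval around the centromere were left out. This gave 1093 of 28903 baits, or 3.78%. They held 28170 of the 182303 local contacts, or 15.5%. The count of local contacts chose these baits, so the number of their calls in any condition is a description and no test was made on it.

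The study asked how the contacts of poised enhancers change as cells leave the naive state and differentiate, and 20 libraries of 10 conditions were made, 2 per condition. Definitive endoderm (DE) was made from HNES1 cells at day 14 of the transition with Activin A, CHIR99021, FGF2, PI-103, BMP4 and heparin for a day and then with Activin A, PI-103, FGF2, LDN193189 and heparin for the next 2 days. Whether DE cells were sorted or purified is not given in the sources used here, nor is the total duration of the DE protocol. Neuroectoderm (NE) was made from the same day 14 cells in 10 days with A8301 and LDN193189, and was sorted for CD56 and against EpCAM. H9 is a primed human embryonic stem cell line, grown without feeders in mTeSR-E8. The naive cells were of HNES1, a line of human naive embryonic stem cells, kept in N2B27 with PD0325901, LIF, Gö6983 and XAV939 on mouse feeder cells. The transition to the primed state followed a passage without feeders, in N2B27 with XAV939, and was sampled at days 1, 3, 5, 7, 10 and 14. Each state was thus studied in 1 line, and H9 differs from day 14 HNES1 in both line and medium, which cannot be told apart here.

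The deposited matrix held 1 interaction score per contact and condition, for both libraries together. There was therefore no spread between replicates, and no difference between conditions could be tested. Calls were made at scores of 5 and above, a level that every listed contact reached in at least 1 condition. Read depth per condition was unknown. The data hold contacts and no RNA, so the labelled cell types could not be checked against marker genes. The 95% Wilson intervals below cover counting error only, and contacts of neighbouring fragments are not independent.

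Poised enhancers are regulatory elements that in pluripotent cells carry the Polycomb mark H3K27me3 beside marks of accessible enhancers, and they lie near genes of later development. Polycomb group proteins keep such genes silent and can hold distant Polycomb-bound regions together in the nucleus, with the HOX clusters among the known examples. Capture Hi-C joins fragments that lie close to each other, pulls down ligation products with a bait at an end, and scores each pair against what distance and background noise would give.

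Few of the baits lay at a gene start. The baits began and ended at sites of DpnII, which cuts at GATC, wherever this could be read. The promoter sequences from RefSeq (GRCh38.p14, 15768 protein-coding genes) show where a bait meets a gene. Of the 1043 baits on the chromosomes covered, 32 held an annotated start of a protein-coding gene (3.07%, interval 2.18 to 4.30), against 1447 of 23028 other baits (6.28%, 5.98 to 6.60). Whole promoter windows of 300 bases, with 250 before the start and 50 after it, lay in 28 of the baits and belonged to 29 genes. CG pairs, the substrate of DNA methylation and a feature of Polycomb target promoters, numbered 4 to 49 in them with a median of 26, against a median of 22 over all promoters. At least 10 CG pairs stood in 24 of the 29, against 72.9% of all promoters. These sets are not alike, since a window that lies whole in a bait mostly lacks GATC, which 39.7% of all promoters hold. Whole windows in other baits were not compared. CG reads the same on both strands, so a count holds for both, and windows of minus-strand genes are written in the direction of the gene. Shown here are the promoters of GIMAP2 and SLC35A3, the baits with a gene start and the most local contacts, then those of the cytokine gene IL6, whose bait had a contact in every condition, and of IGFBP6, an insulin-like growth factor binding protein. CG pairs are in capitals.
GIMAP2: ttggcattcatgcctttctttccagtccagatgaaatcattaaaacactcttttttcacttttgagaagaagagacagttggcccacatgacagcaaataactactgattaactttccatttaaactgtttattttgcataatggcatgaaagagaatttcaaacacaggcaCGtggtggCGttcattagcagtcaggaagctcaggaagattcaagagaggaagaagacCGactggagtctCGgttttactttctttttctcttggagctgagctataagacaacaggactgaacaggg
SLC35A3: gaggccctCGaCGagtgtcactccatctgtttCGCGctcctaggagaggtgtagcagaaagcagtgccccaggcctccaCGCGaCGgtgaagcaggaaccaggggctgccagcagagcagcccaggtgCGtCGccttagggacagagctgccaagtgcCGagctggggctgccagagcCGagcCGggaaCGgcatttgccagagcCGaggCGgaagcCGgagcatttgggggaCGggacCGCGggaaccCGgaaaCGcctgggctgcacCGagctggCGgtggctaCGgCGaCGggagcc
IL6: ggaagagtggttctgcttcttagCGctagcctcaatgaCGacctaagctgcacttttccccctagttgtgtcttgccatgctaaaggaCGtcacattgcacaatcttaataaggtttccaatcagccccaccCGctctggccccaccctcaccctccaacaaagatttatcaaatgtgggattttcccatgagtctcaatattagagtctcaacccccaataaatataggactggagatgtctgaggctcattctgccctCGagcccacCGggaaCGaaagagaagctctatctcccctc
IGFBP6: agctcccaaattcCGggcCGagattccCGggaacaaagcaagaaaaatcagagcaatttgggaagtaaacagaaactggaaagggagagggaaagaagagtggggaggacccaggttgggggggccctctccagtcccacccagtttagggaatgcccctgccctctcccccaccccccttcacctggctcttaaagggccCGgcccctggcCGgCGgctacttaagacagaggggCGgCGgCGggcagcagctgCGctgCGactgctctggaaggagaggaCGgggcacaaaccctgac

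The GIMAP2 window (chr7:150685456-150685755, plus strand) had 4 CG pairs, and 75.5% of all promoters had as many or more. The SLC35A3 window (chr1:99969746-99970045, plus strand) had 26, which 30.1% of promoters reached. The IL6 window (chr7:22726950-22727249, plus strand) had 7, and the IGFBP6 window (chr12:53097417-53097716, plus strand) had 12. The baits with a gene start thus included promoters poor and rich in CG pairs.

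The HOXA9 promoter (chr7:27165488-27165787, minus strand) is shown for the edge of a bait. GATC is in capitals, and the 2nd of its 2 occurrences, at base 69 from the 5′ end, is the cut site at which the bait chr7:27164881-27165715 ends.
HOXA9: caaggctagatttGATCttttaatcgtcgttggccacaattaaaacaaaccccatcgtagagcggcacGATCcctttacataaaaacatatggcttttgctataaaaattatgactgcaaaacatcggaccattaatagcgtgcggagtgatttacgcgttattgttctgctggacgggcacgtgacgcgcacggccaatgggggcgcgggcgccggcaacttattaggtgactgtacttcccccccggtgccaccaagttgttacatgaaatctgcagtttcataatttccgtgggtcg
The part of this window after that site, with the HOXA9 start, was captured, and the part before it was not in this bait. GATC, which reads the same on both strands, stood in 39.7% of all promoter windows. It began each of the 433 baits whose first base fell in a promoter window, and followed each of the 347 whose last base did. Of the 1157 windows that lay whole in a bait, 3 held GATC, so a few baits were not single fragments.

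At the other end of contacts, gene starts were about as frequent for these baits as for the rest. A gene start lay at the other end of 3.77% of their local contacts (3.54 to 4.00), against 3.80% for other baits (3.71 to 3.90). The starts met in the most contacts were those of HOXA3 with 12 contacts, HOXA10 with 11, PRAC1 and PRAC2 with 10 each, HOXA2 with 9 and KNCN with 8. PRAC1 and PRAC2 lie beside HOXB13, and the HOX genes encode homeodomain factors that set position along the body axis. Of the HOXA3 contacts, 1 was called in DE, 1 in NE, 7 in H9 and 5 at day 14, against 1 in naive cells.

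A gene's annotated interval, widened by 1 kb, overlapped 612 of the baits (56.0%), against 61.1% of the other baits. The promoter table had no gene of chromosome 8, so gene starts there were not looked at. The annotation used gave no exons, so exon and intron were not told apart. The baits were somewhat longer, with a median of 718 bp against 611 bp. They also had more contacts to other chromosomes, a count the rule did not use, with a median of 34 per bait against 19. The highest such count was 344. Fragments touching another bait were as common among them (60.02%) as among the others (59.6%), and 161 baits touched another bait with 20 or more local contacts.

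The number of local contacts per bait was 20 to 63, with a median of 24. At least 30 were found for 227 baits, at least 40 for 40 and at least 50 for 10. Just inside the threshold, 155 baits had exactly 20, with a mean of 3.00 called contacts per condition, and just outside it 212 baits had 19, with 2.64. Those baits were also close in contacts to other chromosomes (median 32 and 30) and in overlap with genes (55.5% and 57.5%). The threshold thus cut a continuous range of counts.

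Many contacts of a bait were neighbours of each other. Other ends were typically stretches of about 5 kb. Joining those of a bait that lay within 10 kb of each other turned the 28170 contacts into 11444 regions. A bait had 2 to 20 regions, with a median of 10. A region held 2.46 contacts on average, against 1.31 for other baits. The other ends lay at a median of 200.1 kb from these baits and 235 kb from the others. Under 100 kb lay 18.9% of contacts, against 15.1%, and between 500 kb and 1 Mb lay 4.95%, against 10.0%. Over 1 Mb lay 49 contacts of 35 baits. Contacts often ran to 1 side, since 635 baits had 80% or more of them on the same side and 170 had between 40% and 60%. The sides were not counted for other baits.

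Called local contacts were most numerous in the differentiated cells. They numbered 6340 in DE, 7057 in NE and 4808 in H9, and over the time course 3505 in naive cells, then 3523 (day 1), 4490 (day 3), 4350 (day 5), 3739 (day 7), 3751 (day 10) and 4340 (day 14). The shares of all local contacts called in those conditions were 16.2% in DE, 17.9% in NE and 13% in H9, then 10%, 10.1%, 12.4%, 11.7%, 10.2%, 10.3% and 11.2% in order of time. Per bait the mean was 5.80 in DE, 6.46 in NE and 4.40 in H9, against 0.961, 1.06 and 0.785 for other baits. Naive cells had 3.21 and day 14 cells 3.97 per bait, against 0.611 and 0.669 for other baits. The order of conditions was thus close to that of the remaining baits, at a higher level.

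**Figure D1:**
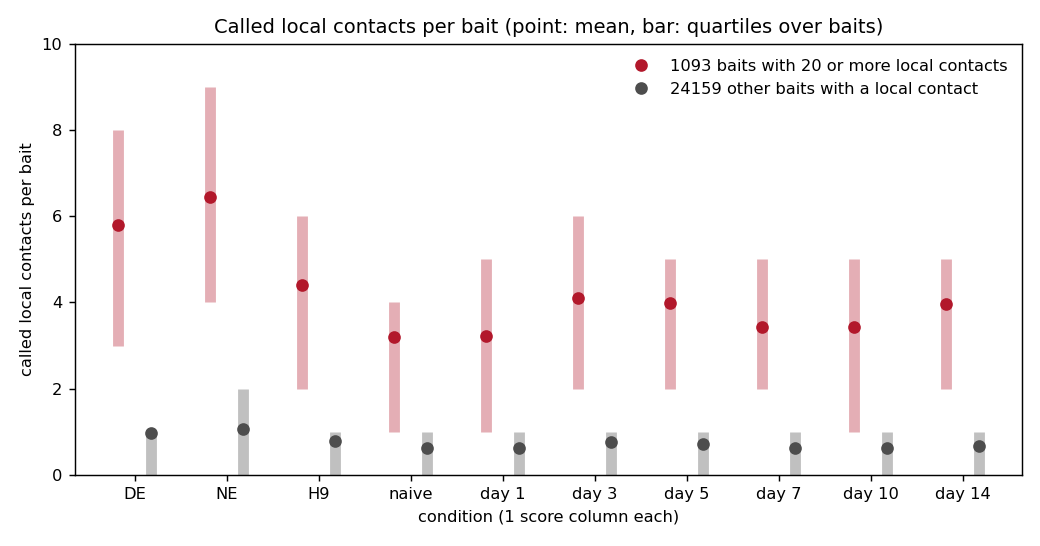
Called local contacts per bait (y axis) in each condition (x axis), for the 1093 baits in red and the 24159 other baits with a local contact in grey. Points are means and bars span the quartiles over baits, with no replicate error. The red means lie highest in NE (6.46) and DE (5.80) and lowest in naive cells (3.21).

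Of the 1093 baits, 611 had a called contact in every condition, a count that was not made for other baits. The condition with the most calls was NE for 279, DE for 191, H9 for 81, day 3 for 81, day 5 for 68, day 14 for 45, day 10 for 45, day 1 for 35, the naive state for 31 and day 7 for 27, with ties for 210. In 3 baits a single condition had as many calls as all other conditions together, or more. The median bait had 8 calls in its highest condition and 1 in its lowest. Among the 24159 other baits, NE alone had the most calls for 3038, DE for 2547, H9 for 1538 and day 3 for 1317. The lead of NE and DE was thus shared by the other baits.

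Choosing the baits on 9 conditions and looking at the tenth avoids part of the selection, though all conditions share the bait and its capture. This check was added after seeing the data. Of baits with 20 or more contacts called in the other 9, 788 could be looked at in DE and averaged 5.84 calls there, against 1.02 for other baits. For NE 768 baits averaged 6.55, against 1.13. For naive cells 913 averaged 3.16, against 0.632. The ratio was between 4.98 and 5.81 over the 10 conditions. Of their contacts listed from the other 9 conditions, 14.5% were called again in DE, against 4.31% for other baits, and 8.00% in naive cells, against 2.36%.

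Contacts of these baits came back more often across conditions. Called in 1 condition alone were 67.9% of them (67.4 to 68.5), against 89.1% for the other baits. Calls in 3 or more conditions were found for 14.1%, against 2.89%, and in 5 or more for 4.21%, against 0.507%. All 10 conditions were reached by 45 contacts (0.160%), against 16 (0.0104%). The highest score over conditions was 10 or more for 5.58%, against 1.47%. Conditions in which a bait has many calls have more chance of sharing some, and this was not adjusted for.

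**Figure D2:**
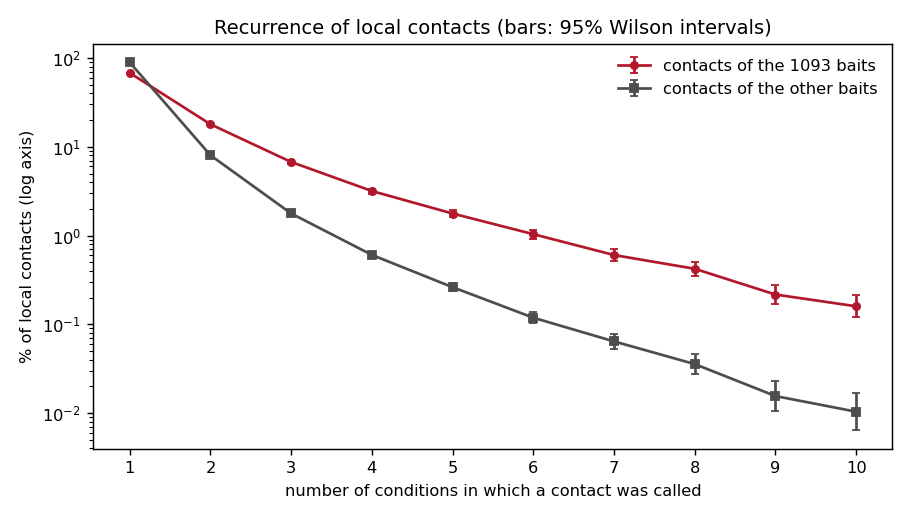
Share of local contacts on a log axis (y) by the number of conditions in which a contact was called (x), for the 1093 baits (red circles) and other baits (grey squares), with 95% Wilson intervals. The red line lies below the grey one at 1 condition (67.9% against 89.1%) and above it from 2 conditions on.

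The 45 contacts called everywhere came from 42 baits and lay at a median of 172 kb. Their other ends overlapped a gene in 22 cases and held a gene start in 1. That start belonged to SSBP3, a single-stranded DNA-binding protein and partner of LIM-domain factors. Its promoter (chr1:54413441-54413740, minus strand) is given with its 3 CG pairs in capitals.
SSBP3: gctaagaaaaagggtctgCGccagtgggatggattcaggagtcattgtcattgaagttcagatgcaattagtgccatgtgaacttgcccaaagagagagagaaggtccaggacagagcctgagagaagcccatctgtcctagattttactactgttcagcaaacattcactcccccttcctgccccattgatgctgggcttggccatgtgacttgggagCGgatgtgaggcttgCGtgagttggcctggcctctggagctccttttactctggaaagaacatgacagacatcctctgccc
The bait, chr1:54486506-54487498 near ACOT11, lay 75.6 kb away. Its scores with the SSBP3 fragment were 18.2 in DE, 12.4 in NE and 6.55 in H9, then 6.21 in naive cells and 12.7, 5.37, 7.99, 6.85, 5.69 and 10.3 at the later days in order. DE, NE and day 1 were highest.

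The GATA4 bait, within the gene of a zinc finger factor of endoderm and heart, met a fragment over BLK, a tyrosine kinase of B cells, at 179 kb. The score was 23.2 in DE, 33.2 in NE and 25.4 in H9, then 14.6, 13.3, 10.5, 12.2, 12.0, 15.5 and 17.6 from the naive state to day 14. NE had the highest score and day 3 the lowest. A bait near MEIS2, a homeodomain factor, met a fragment 225 kb away with 22.7 in DE, 21.5 in NE and 21.3 in H9, then 9.97, 6.67, 27.2, 17.97, 13.4, 22.1 and 27.5 over the same time course. Here naive and day 1 cells were lowest. The PMP22 bait, at the gene of a myelin protein of peripheral nerve, met a fragment over TVP23C at 244 kb with 11.5 in DE, 13.3 in NE and 7.51 in H9, then 21.2, 27.5, 11.1, 11.1, 13.5, 11.8 and 9.75. The naive state and day 1 were highest for this contact, unlike the one near MEIS2.

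The IL6 bait holds the start of the gene of interleukin 6, an inflammatory cytokine. Its contact at 172 kb had scores of 8.11 in DE, 7.82 in NE and 8.28 in H9, against 5.19 in naive cells and 13.9 at day 14. A contact of another length was also among the 45. The bait chr1:16727106-16727633, near LOC124903857, met chr1:234781219-234786738 at 218 Mb, across almost the whole chromosome, with 85.8 in DE, 125 in NE and 38.6 in H9, against 15.9 in naive cells and 50.4 at day 14. Its cause was not tested.

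The 10 baits with 50 or more local contacts differed in which conditions held their calls. The first was beside FZD7, a Frizzled receptor for Wnt ligands, at chr2:202038919-202039636, with 63 contacts. It had 37 called contacts in DE, 22 in NE and 21 in H9, and 4, 7, 6, 9, 10, 5 and 10 from the naive state to day 14. DE was highest and the whole time course was below H9. Of its contacts, 40 joined into a region of 236 kb, with gaps of up to 10 kb allowed.

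GIMAP2, a GTPase of a family known from lymphocytes, had 62 contacts, and its calls varied less over conditions than those of FZD7. They numbered 15 in DE, 21 in NE and 15 in H9, and 12, 20, 15, 21, 14, 16 and 15 over the time course. Its largest region, of 254 kb, covered GIMAP8, GIMAP7, GIMAP4 and GIMAP6, so a family cluster lay within reach of the bait.

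The AKAP12 bait, in the gene of a scaffold for protein kinase A, had 59 contacts, and all 59 lay at lower coordinates. A region of 263 kb over MTHFD1L, a mitochondrial enzyme of folate metabolism, held 46 of them. Calls numbered 18 in DE, 38 in NE and 21 in H9, and 11, 4, 17, 8, 18, 12 and 22 over the time course. NE stood highest and day 1 lowest.

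The GATA4 bait, chr8:11746436-11747930, had 59 contacts as well. It had 21 calls in DE, 26 in NE and 23 in H9, and 15, 8, 11, 17, 9, 14 and 9 over the time course, so the 3 conditions outside the time course were highest. The other ends overlapped FAM167A, BLK, FDFT1, CTSB and the defensin genes DEFB135 and DEFB134, besides GATA4 itself.

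A bait far from any protein-coding gene, chr1:229013623-229014730, lay 256 kb from RAB4A and had 58 contacts. It had 27 calls in DE, 4 in NE and 21 in H9, and 8, 4, 7, 8, 7, 13 and 6 over the time course. DE and H9 were high, and NE was as low as day 1. Its largest region, of 24 contacts, lay over RHOU.

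A bait 2062 bp from FOXC2, a forkhead factor of mesoderm, at chr16:86563806-86564767, also had 58 contacts. All but 1 ran to higher coordinates, out to 721 kb. Calls numbered 21 in DE, 35 in NE and 17 in H9, and 2, 6, 7, 7, 5, 8 and 8 over the time course. Every time point was below DE, NE and H9. The contact called in most conditions lay 501 kb away, outside any gene, and scored 16.5 in DE, 12.2 in NE and 13.4 in H9, against 4.57 in naive cells and 7.27 at day 14.

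NTF3, the gene of neurotrophin 3, had a bait with 54 contacts. It had 29 calls in DE, 22 in NE and 5 in H9. Over the time course it had 7, 10, 7, 11, 8, 12 and 6, so H9 was lowest at this bait. H9 was not lowest at a bait beside it with 41 contacts, which had 7 calls in H9 and 3 in naive cells. EMP1, an epithelial membrane protein, had 54 contacts, all at lower coordinates, over GPRC5A, GPRC5D, HEBP1 and other genes. It had 10 calls in DE, 8 in NE and 15 in H9, and 11, 15, 19, 23, 17, 23 and 14 over the time course. This bait was lowest in NE and DE, and highest at days 5 and 10.

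CUX2, a homeodomain factor of upper cortical neurons, had 53 contacts, with 15 calls in DE, 16 in NE and 7 in H9, and 21, 4, 3, 2, 5, 8 and 9 over the time course. The naive state was highest and days 1 to 7 were low. BEND6 had 51, with 13 in DE, 19 in NE and 6 in H9, and 6, 1, 11, 12, 1, 1 and 14 over the time course. Days 1, 7 and 10, between other days with many calls, had a single one each.

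**Figure D3:**
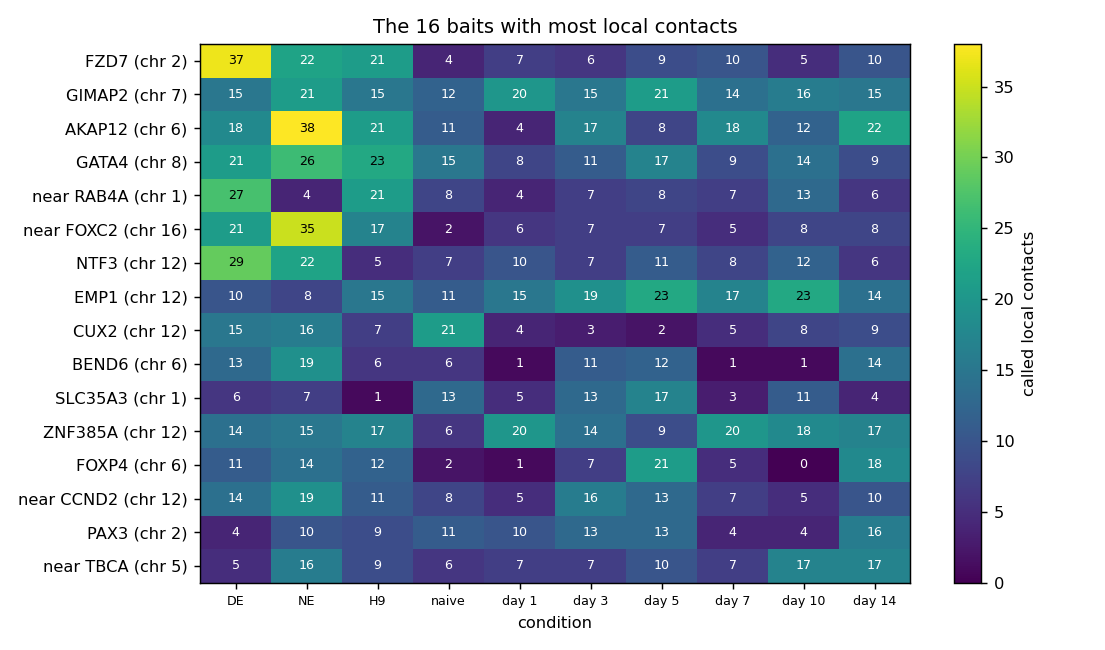
Called local contacts (colour and number) of the 16 baits with most local contacts (rows) in each condition (columns). FZD7 is highest in DE (37) and AKAP12 in NE (38), CUX2 is highest in naive cells (21), and GIMAP2 has 12 or more in every condition.

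**Figure D4:**
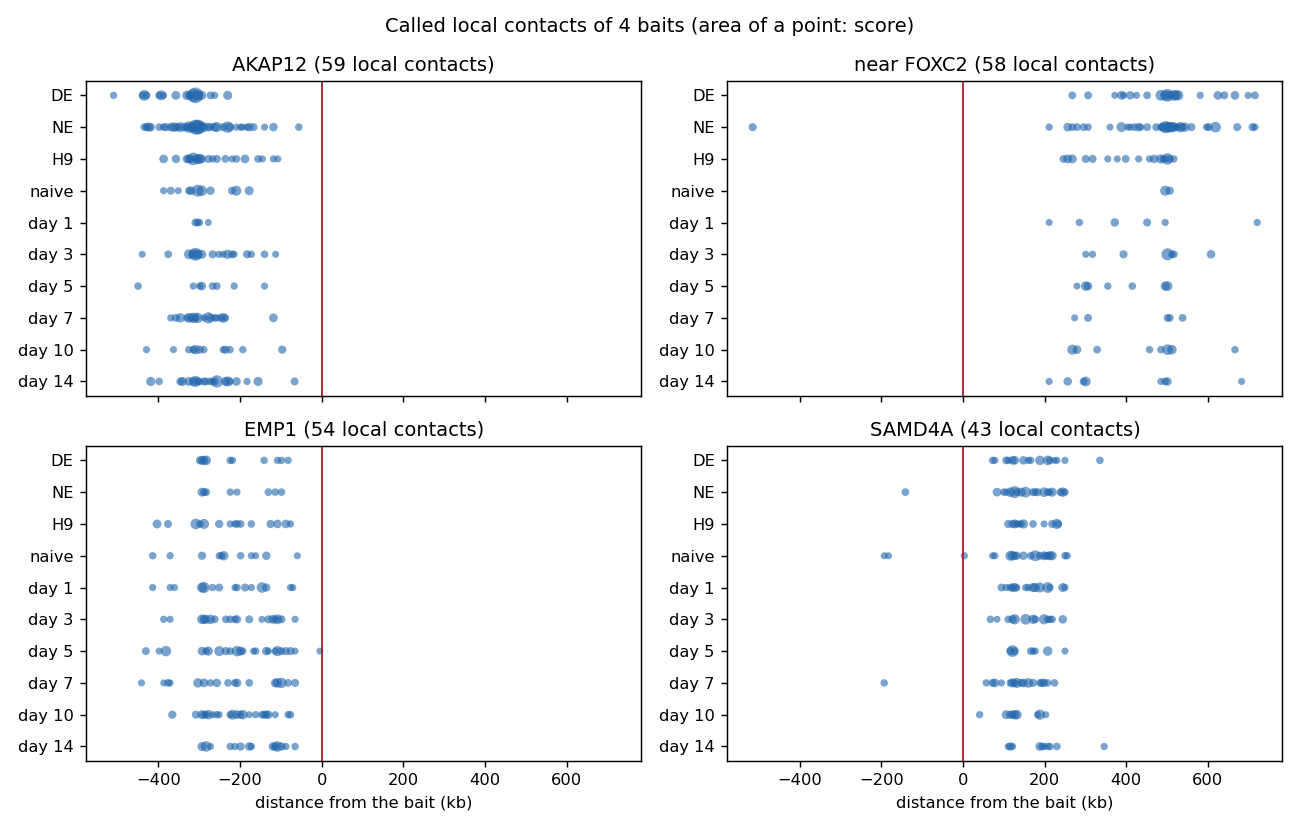
Called contacts of 4 baits by distance from the bait (x axis, kb) and condition (y axis), with the area of a point in proportion to its score and the bait at the red line. AKAP12 and EMP1 meet fragments at lower coordinates alone, the bait near FOXC2 has 57 of 58 at higher ones, and the SAMD4A bait has 40 of 43 at higher ones.

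Between day 14 and the naive state, 574 of the 1093 baits had more calls at day 14 and 366 had fewer. Over all baits with a local contact, 28.2% had more and 24.6% fewer. Calls were 1.24 times as many at day 14, against 1.09 times for other baits. A difference of 5 or more upwards was seen in 113 and downwards in 52, where the background was 0.756% and 0.356%. The background includes these baits, and among the other baits the counts were 78 and 38. The rule chose baits with many contacts, so differences in both directions are more frequent among them by choice. Baits near the minimum can also owe their place to the condition in which they are high. Both limits hold for the comparisons below. Of the naive calls 17.9% were also called at day 14, against 4.16% for other baits.

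In the comparisons of conditions, named genes stand for single baits. FOXP4, a forkhead factor, had 18 calls at day 14 and 2 in naive cells. Its row ran 2, 1, 7, 21, 5, 0 and 18 over the time course, so the counts of days 5 and 14 stood apart from those of their neighbours. A bait near LYPD6 had 16 at day 14 and 3 in naive cells, and SMUG1, a uracil-DNA glycosylase, likewise 16 and 3. In the other direction CUX2 had 9 at day 14 and 21 in naive cells. The receptor tyrosine kinase MERTK had 0 and 11, and SAMD4A, an RNA-binding regulator of translation, had 10 and 20. Another SAMD4A bait went the other way, with 11 at day 14 and 9 in naive cells. Another bait near LYPD6 had 0 at day 14 and 1 in naive cells, and another SMUG1 bait had 4 and 1. The MERTK bait had 21 local contacts, near the minimum, and passed the rule only through its calls in naive cells.

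Set against day 14, H9 had 1.11 times the calls of these baits and 1.17 times those of others. With the same number of top-scoring local contacts called in every condition, the value for these baits was 0.998, so the direction depended on that scaling. More calls in H9 were found for 528 baits and fewer for 420, with a background of 31.3% and 25.2%. At 5 or more the counts were 124 and 71, with a background of 0.998% and 0.487%. A bait near DEFB115, a beta-defensin gene, had 17 calls in H9 and 1 at day 14, and in no other condition more than 2. It had 20 local contacts, the minimum, and passed the rule only through its H9 calls. A GATA4 bait had 23 in H9 and 9 at day 14. Other GATA4 baits had 9 and 11 in H9, against 8 and 6 at day 14. The bait near RAB4A had 21 and 6. SMUG1 had 4 in H9 and 16 at day 14, RBFOX1, a neuronal splicing factor, had 3 and 15, and a bait near the potassium channel gene KCNA6 had 1 and 13. Another SMUG1 bait went the other way, with 6 in H9 and 4 at day 14. The baits that touch the one near KCNA6 on either side differed little. They had 7 and 3 calls in H9, against 8 and 4 at day 14.

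DE had 1.46 times the calls of day 14 in these baits, and 1.44 times in others. More calls in DE than at day 14 were counted for 684 baits and fewer for 300, with a background of 38.4% and 22.6%. At 5 or more they were 254 and 54, with a background of 1.81% and 0.384%. FZD7 had 37 in DE and 10 at day 14, NTF3 had 29 and 6, and the bait near RAB4A had 27 and 6. PMP22 had 3 in DE and 16 at day 14, and DMBX1, a homeobox gene of the developing brain, had 1 and 14. A bait at PAX3, a paired-box factor of neural crest and muscle precursors, had 4 and 16. The 6 PAX3 baits together had 39 in DE and 33 at day 14. Another DMBX1 bait had 6 in DE and 3 at day 14. Contacts of the 1093 baits to other chromosomes were also called more often, with 9.65 per bait in DE and 2.46 at day 14. The other baits shared this, with 6.88 in DE and 1.16 at day 14. The part of this general difference in the local counts was not tested. With equal numbers of contacts called in every condition, DE over day 14 was 1.12. DE and NE, with the most calls, also weighed most in the choice of baits. Chosen without these conditions, 489 of the 1093 baits remained, and DE over day 14 was 1.23.

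NE had 1.63 times the calls of day 14, and 1.59 times in other baits. More calls in NE than at day 14 were counted for 743 baits and fewer for 250, with a background of 41.4% and 21.2%. At 5 or more they were 322 and 35, with a background of 2.58% and 0.301%. The bait near FOXC2 had 35 in NE and 8 at day 14. TLR5, the receptor for flagellin, had 24 and 4, and GATA4 had 26 and 9. SMUG1 and PMP22 had 7 in NE and 16 at day 14 each. Another SMUG1 bait had 5 in NE and 4 at day 14. In NE, called contacts to other chromosomes numbered 9.005 per bait, against 5.68 for other baits. With equal numbers of contacts called, the NE to day 14 ratio was 1.14. Over the 489 baits chosen without DE and NE, that ratio was 1.39.

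DE and NE were also set against each other, and DE had 0.898 times the calls of NE, against 0.907 times in other baits. Of the NE calls 24.6% were also called in DE, against 7.82% for other baits. More calls in DE than in NE were found for 412 baits and fewer for 549, with a background of 30.3% and 34.7%. At 5 or more they were 90 and 162, with a background of 0.788% and 1.38%. The bait near RAB4A had 27 in DE and 4 in NE, FZD7 had 37 and 22, and a bait near GRK5, a kinase of G protein-coupled receptors, had 22 and 7. AKAP12 had 18 in DE and 38 in NE, CACNA1G, a T-type calcium channel, had 3 and 19, and the bait near FOXC2 had 21 and 35. The CACNA1G bait had 28 local contacts, of which 19 were called in NE, and it passed the rule only through its NE calls.

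Along the genome the baits fell into 514 loci when those within 500 kb were joined. Single baits made up 295 loci, and 219 loci held the remaining 798 baits. Chromosome 12 had the most, with 117 baits or 7.47% of its 1567 baits. Chromosome 1 had 112 (4.01%), chromosome 5 had 101 (6.15%), chromosome 11 had 82 (5.25%) and chromosome 20 had 39 (5.23%). Chromosomes 9 (1.18%), 19 (1.54%) and 22 (0.853%) had few for their baits, and X had 0 of 782.

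Local contacts joined these baits to each other in 114 pairs, and 161 of the 170 contacts of such pairs lay within a locus. The baits met 20474 different other ends, and 4417 of these were met by 2 or more of the baits and 352 by 5 or more. Baits that share other ends are not independent of each other.

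The locus with most baits was HOXC with its flank up to NCKAP1L, chr12:53779802-54592891, with 28 of the 127 baits there and 790 contacts. Calls summed to 199 in DE, 198 in NE and 174 in H9, and to 97, 153, 152, 180, 137, 149 and 200 over the time course. Naive cells were lowest, and day 14 was level with DE and NE. A fragment in SMUG1 and a fragment near HOXC11 were each met by 20 of the baits. A bait near HOXC8, chr12:54006325-54006618, had 3 of the contacts called in all 10 conditions, with other ends 194 to 204 kb away.

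The PAX3 locus, chr2:222024937-222796763, came next with 23 baits and 642 contacts. Calls numbered 112 in DE, 123 in NE and 118 in H9, and 82, 93, 142, 114, 88, 65 and 93 over the time course, highest at day 3. A fragment over SGPP2 and FARSB, chr2:222562056-222568438, was met by 21 of the baits, the most of any other end. SGPP2 is a sphingosine phosphatase and FARSB a subunit of phenylalanyl-tRNA synthetase.

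HOXB and its flank, chr17:47871961-48792231, held 21 baits and HOXA, chr7:26857731-27576179, held 14. HOXB had 100 calls in DE, 103 in NE and 108 in H9, and 52, 48, 73, 62, 72, 69 and 81 over the time course. HOXA had 46 in DE, 53 in NE and 74 in H9, and 48, 45, 54, 67, 53, 47 and 73 over the time course. In HOXA, H9 and day 14 were highest and DE was near the naive level, whereas in HOXB all 3 conditions outside the time course were above day 14.

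Around OTP, a homeobox gene of the hypothalamus, lay 17 baits in chr5:77627237-77995597, which had 54 calls in DE, 69 in NE and 71 in H9, and 49, 68, 104, 81, 71, 64 and 75 over the time course. Day 3 was highest, as at PAX3. The locus of FOXD1, a forkhead gene, held 9 baits with 29 calls in DE, 23 in NE and 54 in H9, and 12, 18, 34, 36, 34, 49 and 41 over the time course. This locus was highest in H9, and DE and NE lay below day 14.

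At HES1, a Notch target and repressor, 12 baits in chr3:193774143-194316872 had 90 calls in DE, 112 in NE and 57 in H9, and 23, 33, 37, 23, 35, 42 and 38 over the time course. Every time point was below H9. The locus that runs from a bait near the cyclin gene CCND2 to NTF3 had 12 baits with 137 in DE, 132 in NE and 51 in H9, and 70, 72, 68, 70, 59, 71 and 73 over the time course. Here the time course was flat and H9 lowest. FOXA2, a pioneer factor of endoderm, and THBD shared a locus of 10 baits with 58 in DE, 86 in NE and 34 in H9, and 28, 19, 32, 39, 24, 41 and 33 over the time course. NE was above DE there.

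**Figure D5:**
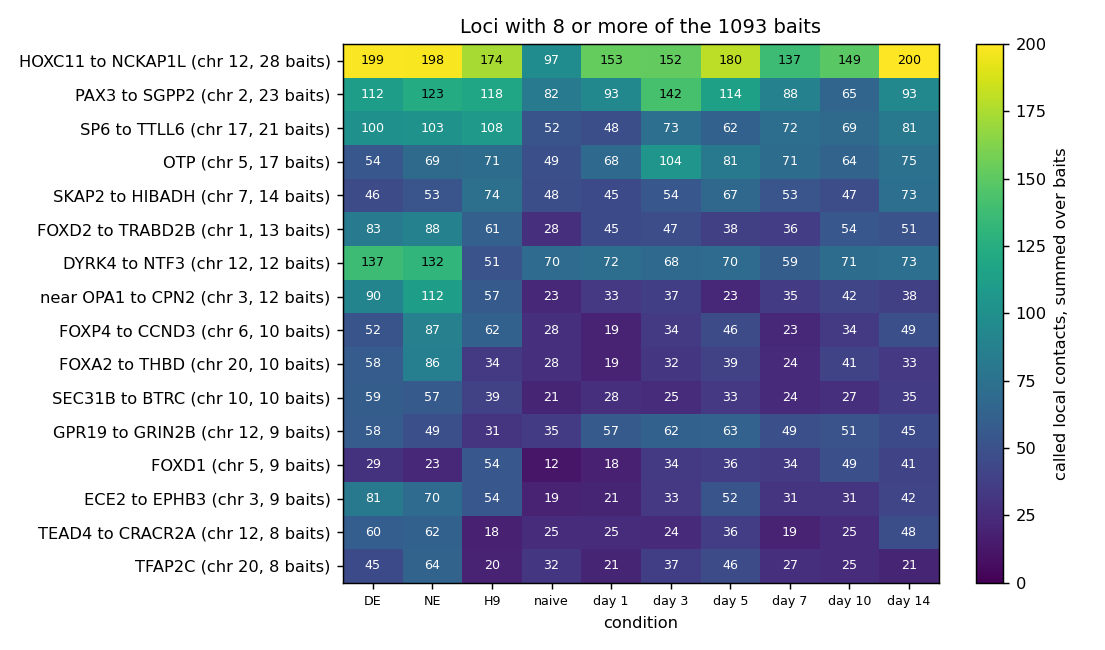
Called local contacts summed over the baits of a locus (colour and number) for the 16 loci with 8 or more of the 1093 baits (rows, named by the first and the last gene, in order of position, that its baits overlap or lie nearest to) in each condition (columns). The row of HOXC, from HOXC11 to NCKAP1L, is lowest in naive cells (97) and that of FOXD1 highest in H9 (54).

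Among the 219 loci with 2 or more baits, NE alone had the most calls at 88, DE at 50, day 3 at 12, day 5 at 12, H9 at 10, day 14 at 10, the naive state at 6, day 1 at 4, day 7 at 3 and day 10 at 3, with ties at 21. NE and DE also had the most calls over all local contacts, with 17.9% and 16.2% called, and weighed most in the choice of baits. Loci of other baits were not counted.

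Of the baits, 1014 (92.8%) overlapped no gene of the 8 lists examined, a share that was not computed for other baits. HOX genes had 19 baits (1.74%), against 0.418% of other baits, and 12 of the 36 HOX genes met by any bait were met by at least 1 of the 19. The intervals of HOXC4, HOXC5 and HOXC6 overlap, so those genes share baits. The HOX baits averaged 6.63 calls in DE, 5.74 in NE and 6.68 in H9, against 3.21 in naive cells and 6.26 at day 14. HOXD3 had 9 calls in DE, 2 in NE and 12 in H9, against 4 at day 14 and 0 in naive cells. HOXC11 had 19 in DE, 7 in NE and 10 in H9, against 5 at day 14 and 5 in naive cells.

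Developmental transcription factors took 49 baits (4.48%, against 4.69% of other baits), and 34 of 236 such genes had one. They averaged 5.65 calls in DE and 6.47 in NE, close to the baits in no list, which had 5.77 and 6.48. EMX1, a factor of the cerebral cortex, had 14 in H9, with 1 in DE, 1 in NE and 2 at day 14. LEF1, which carries the Wnt signal to target genes, had 9 in DE and 8 in NE, against 0 at day 14. With 20 local contacts, the minimum, its bait owed its place in part to DE and NE. MYOD1, the muscle determination factor, had 15 at day 3 and 2 to 7 in the other conditions.

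The endoderm list had 4 baits (0.366%, against 0.381%), at GATA4 and FOXA2, and the neuroectoderm list also had 4 (0.366%, against 0.729%), at LHX2, MEIS2 and VAX1. The endoderm baits averaged 13.0 calls in DE and 16.8 in NE, and those of neuroectoderm 2.75 in each. The GATA4 baits were 3 of the 4 and set that mean. Signalling genes had 8 baits (0.732%, against 1.02%), at FGF20, FZD4, FZD7, GLI3, GREM1, RSPO2, WNT10B and WNT5B. Aside from FZD7, none of these had more than 8 calls in any condition.

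Polycomb genes had 2 baits (0.183%, against 0.170% of other baits). The bait at CBX2, a chromodomain subunit of Polycomb repressive complex 1, had 3 calls in DE, 1 in NE and 8 in H9, against 5 at day 14. That at PHC2, a polyhomeotic subunit of the same complex, had 6 in DE, 7 in NE and 5 in H9, against 10 at day 14. Pluripotency genes had 3 (0.274%, against 0.161%), at DUSP6, a phosphatase of ERK, and at TFAP2C, a factor of naive cells and trophoblast. The 2 baits at TFAP2C together had 14 in DE, 27 in NE and 5 in H9, against 5 at day 14 and 7 in naive cells. Housekeeping genes had 0 of these baits, with 3 of the 20 genes met by any bait.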

How the data were processed

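Poised Enhancer Capture Hi-C was measured in 20 libraries of 10 conditions. The deposited values are CHiCAGO interaction scores per the labels, 1 column per condition for both libraries, and 0 other columns of samples were present. Coordinates are on GRCh38 per the submitters' processing notes, and the distance column is the authors' own. The sources used here did not give the aligner, caller version, binning or filters. Depth was unknown, and 77.2% of scores were 0.

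Calls, loci, regions and gene links were computed with Python 3.11.15, pandas 2.3.3, numpy 2.4.6, scipy 1.17.1 and matplotlib 3.10.9, from 19956 RefSeq protein-coding genes after 94 readthrough genes were left out. Counting was tested on simulated data. Baits without a gene within 1 kb are called near the nearest gene. The rule for named baits took those with most contacts, the largest differences per comparison, the contacts called in most conditions and the members of 8 gene lists, and the text gives part of these. Some items are not reported here. Baits and lists were chosen with earlier results of these data known. Alternatives were other score thresholds and row minimums, equal numbers of contacts per condition, joined regions, other locus gaps and gene margins, and leaving out DE and NE.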

Additional observations from a re-analysis of the deposited data

How the results depend on the processing

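No paired analysis was possible because each score column holds both libraries of a condition, and for the same reason no replicate could be left out. Of the sums, ratios, shares and numbers of baits and loci recomputed under the alternatives for the 1093 baits, 44 moved by less than their counting interval or 1.5 times, 45 moved by more and 1 changed direction. Of the counts or means per bait of calls in single conditions, 49 stayed within 1.5 times and 61 did not. The change of direction was in H9 over day 14, 1.11 as reported and 0.998 with the 18272 top-scoring local contacts called in every condition. In that setting day 14 over naive was 1.14, DE over day 14 1.12, NE over day 14 1.14 and DE over NE 0.987, and 69.2% of contacts were called in 1 condition and 13.4% in 3 or more.

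At a score of 3 or more the 45903 calls summed over conditions became 94775, with ratios of 1.06 for H9 over day 14, 1.29 for DE over day 14, 1.37 for NE over day 14 and 0.937 for DE over NE. Contacts in 1 condition were then 20.3% and in 3 or more 58.2%. The matrix lists a contact only where it reached 5 somewhere, so lower scores are incomplete. At a score of 10 or more there were 2332 calls, and the ratios in that order were 1.30, 1.90, 2.40 and 0.795, with 75.7% in 1 condition and 11.1% in 3 or more.

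Joining other ends within 10 kb left 27242 called regions. The ratios were 1.13 for day 14 over naive, 1.32 for DE over day 14, 1.41 for NE over day 14 and 0.940 for DE over NE, with 55.1% in 1 condition and 28.1% in 3 or more.

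A minimum of 15 local contacts gave 2654 baits in 916 loci with 80730 calls, 73.3% of contacts in 1 condition and 10.8% in 3 or more. A minimum of 30 gave 227 baits in 160 loci with 14941 calls, 60.7% and 19.4%, and a day 14 over naive ratio of 1.30. Choosing baits without DE and NE gave 489 baits in 294 loci with 26226 calls, 62.5% and 17.9%. DE over day 14 was then 1.23 and NE over day 14 1.39, both in the direction reported.

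Leaving out contacts over 1 Mb or those between baits, or counting each pair once, moved none of these values beyond the same limits. The number of loci was 436 with a gap of 1 Mb and 696 with 100 kb. Gene overlaps numbered 553 without widening and 722 with 5 kb. Unknown depth limits every count: a contact missed in a condition may lie just under the threshold, and DE and NE also had more calls to other chromosomes.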
